A study of Mus musculus and Homo sapiens with 90 samples.

Results

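The 10 immediate early genes described here are FOS (ENSG00000170345), FOSL1 (ENSG00000175592), JUN (ENSG00000177606), JUNB (ENSG00000171223), EGR1 (ENSG00000120738), IER2 (ENSG00000160888), IER3 (ENSG00000137331), DUSP1 (ENSG00000120129), KLF4 (ENSG00000136826) and KLF6 (ENSG00000067082). They were chosen by Ensembl gene ID from the 58230 genes of the RNA-seq tables, with earlier results of these data known. Their shares beside those of all tested genes are therefore descriptions and not tests. All 10 were among the 15023 genes that passed the filter on low counts. The study measured reporter activity of regulatory regions in liver systems and, in 8 RNA-seq libraries, gene expression of HepG2, a human liver cancer cell line labelled p53-WT. Every culture in the RNA-seq was harvested after 48 h, and each of the 4 groups held 2 libraries. The medium group received no metabolites, and the column heads of its libraries carry the letters GAM, whose meaning is not stated. GAM may name a bacterial growth medium, so these cells may have received such a medium in place of metabolites, and each change against medium is relative to whichever was used. The other 3 groups received metabolites collected from a microbial community grown in vitro, at a ratio of 1:32 to the culture medium. That community had been treated with solvent (solvent group), with the antimicrobial cyclic peptide wLwKhShK (wLwKhShK group) or with its control diastereomer WlWkHsHK (diast group). The dose of either peptide is not given, and the labels do not say whether peptide was carried over with the metabolites, so a direct effect on the cells and an effect through the community cannot be told apart.

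Immediate early genes are transcribed within minutes of a growth factor, cytokine or stress signal, without new protein synthesis, mainly through MAP kinase cascades that act on serum response factor and its partners. Their transcripts are short-lived and their induction is usually transient. Many encode transcription factors, among them the FOS and JUN proteins that pair as AP-1, and some, such as the phosphatase DUSP1, switch off the kinases that induced them. In hepatocytes this program is known from liver regeneration and from the acute response to injury. All libraries here were harvested after 48 h, so induction within minutes was not measured. A rise or fall given below is a difference in level between groups at that time.

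Libraries held 17019363 to 25594586 expected counts, and the 2 wLwKhShK libraries were the deepest. The distance between replicates exceeded counting error and was unequal. Chi-square over its degrees of freedom was 3.83 in the diast group, 4.60 in solvent, 11.9 in medium and 12.9 in wLwKhShK. It is taken on counts and weighs highly counted genes most. The correlation of log2 CPM between replicates was 0.9944 in medium and in solvent, 0.9949 in diast and 0.9952 in wLwKhShK. These measures thus order the groups differently. Separate HepG2 cultures for the replicates are not stated, nor are separately treated communities or metabolite preparations. The p-values then reflect only how far these libraries spread, which may be technical. A difference between groups may also be that of single community preparations. Levels are given as CPM, counts relative to the library total scaled by TMM factors, and tests are edgeR quasi-likelihood tests with Benjamini-Hochberg adjustment over all tested genes, called at an adjusted p under 0.05. Levels are relative to the other RNA of a library, so a fall of a gene and a rise of the other RNA cannot be told apart. Each library holds RNA of many cells together. A gene that is lower in every cell and one that is lower in part of the cells therefore cannot be told apart either. HepG2 marker genes were not looked up, since no table that pairs the gene IDs with names was used here. Gene lengths were not used either, so levels are compared between groups and not between genes.

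All 10 genes differed among the 4 groups, where 68.4% of all tested genes did. EGR1 had the smallest p of the 10, at rank 11 of the 15023 tested genes, followed by IER3 at rank 129. Together the 10 genes summed to 1216 and 1196 CPM in medium, 1508 and 1489 in the solvent group, 572 and 594 in the wLwKhShK group and 884 and 888 in the diast group. The sum was thus highest with metabolites of the solvent-treated community and lowest with those of the wLwKhShK-treated community, with no overlap between groups. EGR1 and IER3 made up 50.7% to 62.9% of it, so it mostly follows them. Single genes departed from this order, and FOS, FOSL1 and KLF4 did so most.

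**Figure D1:**
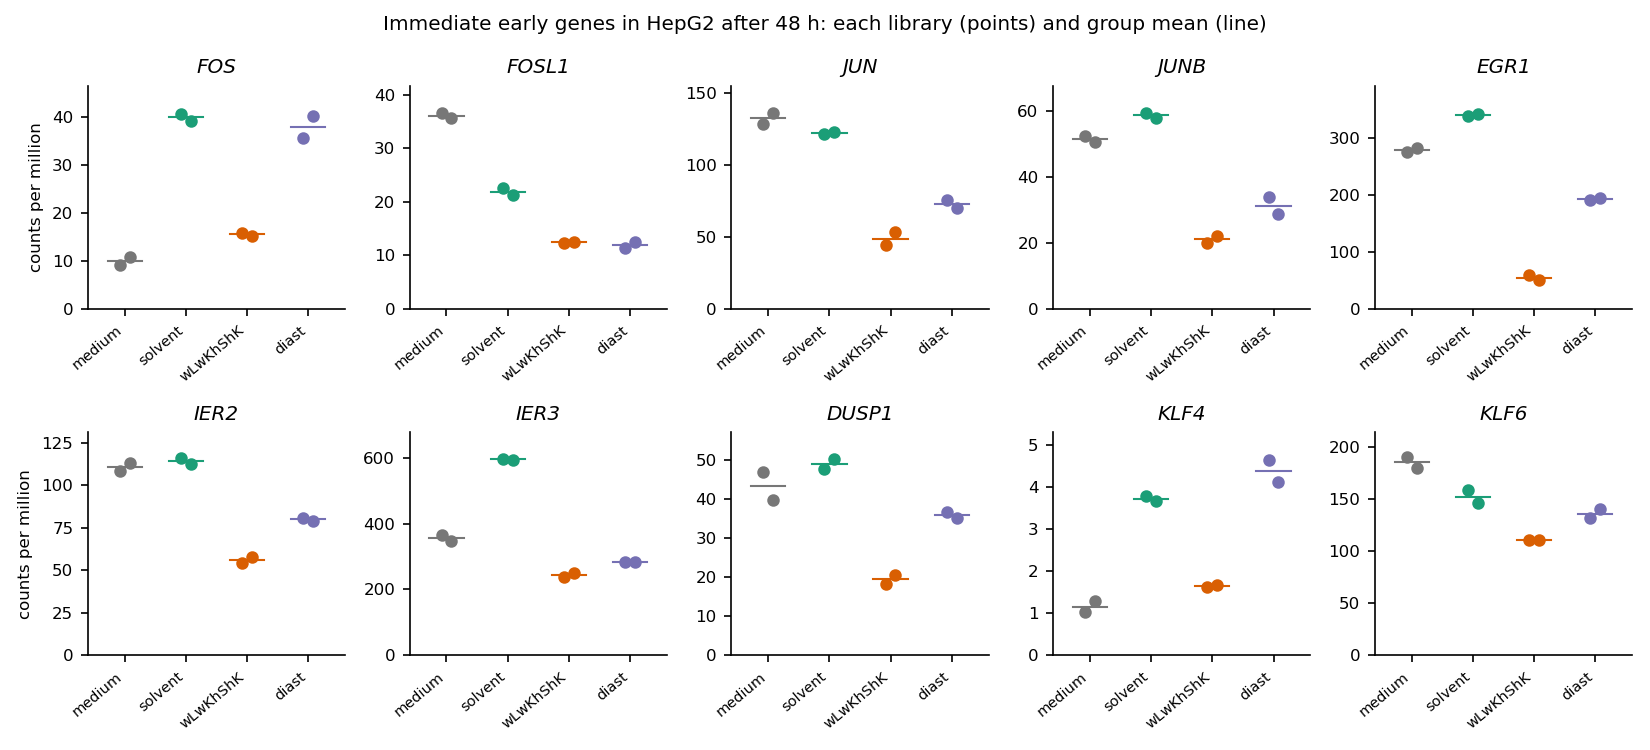
Level of each immediate early gene in CPM, with each of the 2 libraries of a group as a point and the group mean as a line. Most genes are lowest in the wLwKhShK group, whereas FOS and KLF4 are lowest in medium and FOSL1 is low in both the wLwKhShK and the diast group.

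FOS, an AP-1 subunit and a classical early response gene, stood at 9.16 and 10.8 CPM in medium, 40.7 and 39.2 in the solvent group, 15.8 and 15.3 in the wLwKhShK group and 35.7 and 40.3 in the diast group. Its libraries were high with metabolites of the solvent- and diast-treated communities, whose values overlapped, and low in the other 2 groups. These levels rest on 188 and 194 reads in medium and at least 320 in every other library. Solvent and diast were neighbours in the order of levels, and their difference was not past the threshold (edgeR adjusted p 0.668).

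FOSL1, another FOS-family AP-1 subunit, ran differently. It read 36.6 and 35.7 CPM in medium, 22.5 and 21.3 in the solvent group, 12.3 and 12.5 in the wLwKhShK group and 11.3 and 12.5 in the diast group. Medium was highest, the solvent group lay between, and the wLwKhShK and diast groups shared the lowest values. The difference of the last pair was not past the threshold (edgeR adjusted p 0.768).

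JUN, the partner of FOS proteins in AP-1, stood at 128.5 and 136.1 CPM in medium, 121.2 and 122.5 in the solvent group, 44.1 and 53.0 in the wLwKhShK group and 75.8 and 70.2 in the diast group. JUNB, a JUN-family subunit that often restrains JUN, stood at 52.2 and 50.5 CPM in medium, 59.4 and 57.7 in the solvent group, 19.9 and 22.0 in the wLwKhShK group and 33.9 and 28.6 in the diast group. Both genes were high in the medium and solvent libraries, intermediate in the diast libraries and lowest in the wLwKhShK libraries. For neither gene was the difference between medium and solvent past the threshold (adjusted p 0.2 for JUN and 0.0873 for JUNB).

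The balance between FOS and FOSL1 took separate values in the 4 groups. Within a library the ratio of FOS to FOSL1 counts does not depend on scaling. It was 0.25 and 0.303 in medium, 1.81 and 1.84 in the solvent group, 1.28 and 1.22 in the wLwKhShK group and 3.15 and 3.22 in the diast group. Relative to medium the mean ratio was 6.59 times as high in the solvent group, 4.52 times in the wLwKhShK group and 11.5 times in the diast group. The 4 groups did not overlap, but each holds only 2 libraries and the ratio was not tested. It was not a planned result, and no share of other gene pairs that separate the groups is given. FOS lay above and FOSL1 below its medium level in every other group, so the separation from medium follows from those levels. Gene length sets the size of the ratio itself, so only its change between groups can be read.

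EGR1, a zinc finger transcription factor induced through serum response factor, had the widest range of group means of the 10 genes, 6.23 times from lowest to highest. It stood at 276.6 and 283.2 CPM in medium, 339.8 and 341.8 in the solvent group, 58.4 and 50.9 in the wLwKhShK group and 190.4 and 193.9 in the diast group. The groups did not overlap, and each neighbouring pair in the order solvent, medium, diast and wLwKhShK differed.

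IER3, a stress-induced regulator of cell survival, stood at 365.4 and 345.8 CPM in medium, 597.9 and 594.3 in the solvent group, 236.2 and 250.5 in the wLwKhShK group and 282.6 and 284.2 in the diast group. It had the same order of groups as EGR1, but its diast level lay close to its wLwKhShK level. The ratio of EGR1 to IER3 counts was 0.757 and 0.819 in medium, 0.568 and 0.575 in the solvent group, 0.248 and 0.203 in the wLwKhShK group and 0.674 and 0.682 in the diast group. It was lowest in the wLwKhShK libraries, where EGR1 lay further below its level in the other groups than IER3 did. This ratio was not a planned result and was not tested. The expected counts of IER3 were not whole in all 8 libraries, so part of its reads was shared with other entries of the annotation. Such values also occurred for IER2 in 4 libraries and for JUNB in 1.

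**Figure D2:**
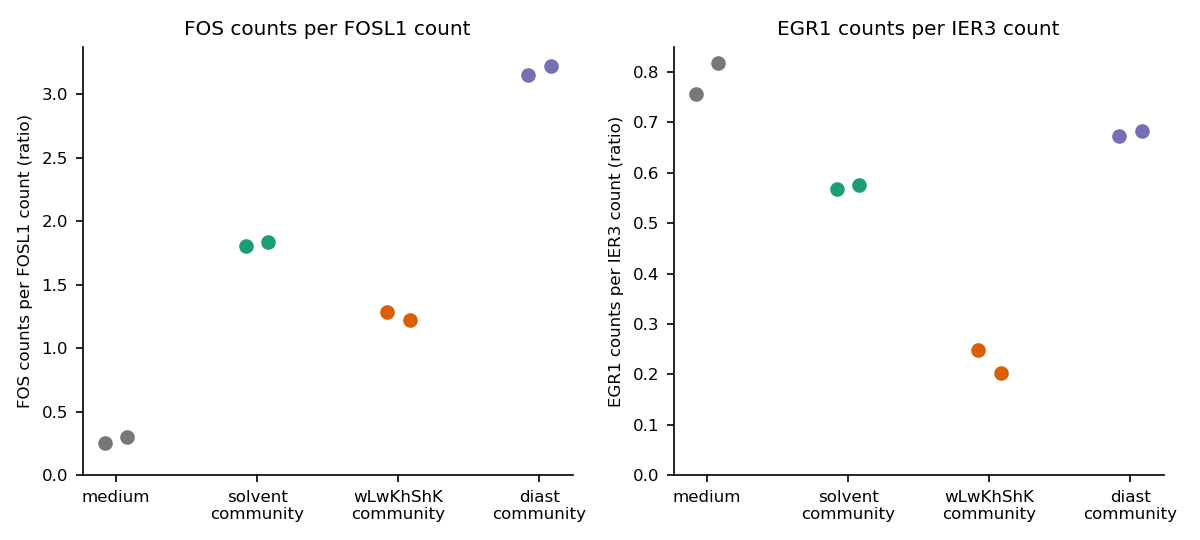
Ratio of FOS to FOSL1 counts (left) and of EGR1 to IER3 counts (right) in each of the 8 libraries, 2 per group. The FOS to FOSL1 ratio runs from 0.25 in a medium library to 3.22 in a diast library, and the EGR1 to IER3 ratio is lowest in the wLwKhShK libraries at 0.203 and 0.248.

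IER2, a nuclear early response protein, stood at 108.3 and 112.9 CPM in medium, 116.0 and 112.7 in the solvent group, 54.4 and 57.6 in the wLwKhShK group and 80.8 and 78.9 in the diast group. DUSP1, the phosphatase that removes activating phosphates from MAP kinases, stood at 47.0 and 39.7 CPM in medium, 47.6 and 50.25 in the solvent group, 18.3 and 20.4 in the wLwKhShK group and 36.8 and 35.25 in the diast group. Both genes had the order solvent, medium, diast and wLwKhShK. The difference between solvent and medium was not past the threshold for either gene (edgeR adjusted p 0.557 for IER2 and 0.138 for DUSP1). For DUSP1 the solvent libraries nevertheless both lay above the medium libraries.

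KLF6, a Krüppel-like factor expressed widely in liver cells, stood at 190.7 and 180.0 CPM in medium, 158.7 and 146.0 in the solvent group, 111.1 and 110.5 in the wLwKhShK group and 132.1 and 140.1 in the diast group. It had the narrowest range of the 10 genes, 1.67 times from lowest to highest group mean. KLF4, a factor known from epithelial differentiation and pluripotency, was the least counted of them. It stood at 1.02 and 1.28 CPM in medium, 3.78 and 3.66 in the solvent group, 1.62 and 1.67 in the wLwKhShK group and 4.63 and 4.11 in the diast group. The 2 medium libraries held 21 and 23 reads of KLF4, with exact Poisson 95% intervals of 13.0 to 32.1 and 14.6 to 34.5, which cover counting error only. Like FOS, KLF4 was high with metabolites of the solvent- and diast-treated communities and low in the other 2 groups.

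The comparison of the solvent group with medium sets metabolites of the solvent-treated community against the medium control. FOS was 4.01-fold higher with metabolites (95% interval 3.39 to 4.75) and KLF4 was 3.23-fold higher (2.03 to 5.14), whereas FOSL1 was 1.65-fold lower (1.416 to 1.917). The log2 changes were 2.00 ± 0.12 for FOS (SE, edgeR adjusted p 2.15e-11), 1.69 ± 0.32 for KLF4 (adjusted p 0.000161) and -0.72 ± 0.10 for FOSL1 (adjusted p 8e-06). IER3 rose 1.68-fold (95% interval 1.54 to 1.82) and EGR1 1.22-fold (adjusted p 0.000771), and KLF6 fell 1.22-fold (adjusted p 0.000895). In all, 4 of the 10 genes rose and 2 fell, where 27.5% of all tested genes rose and 24.9% fell. At least 2-fold rises were made by 2 of the 10, FOS and KLF4, where 11.8% of tested genes made them. The 10 genes had a median log2 change of 0.18, against 0.00 over all tested genes, and their changes ran in both directions, from -0.72 for FOSL1 to 2.00 for FOS.

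The 4 other genes did not pass the threshold against medium. Their 95% intervals on the log2 scale were -0.28 to 0.04 for JUN, 0.00 to 0.38 for JUNB, -0.08 to 0.18 for IER2 and -0.03 to 0.37 for DUSP1, so a change of more than 1.3-fold lies outside each interval. JUNB passed under library-size scaling (adjusted p 0.0451), upper-quartile scaling (0.018) and a fit of only these groups (0.0332). DUSP1 passed under upper-quartile scaling (0.0306) and without medium replicate 1 (0.0433).

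The wLwKhShK and solvent groups were set side by side to compare metabolites of the peptide-treated community with those of the solvent-treated community. All 10 immediate early genes were lower with metabolites of the wLwKhShK-treated community. EGR1 fell most, by 6.22-fold (95% interval 5.63 to 6.88), or -2.64 ± 0.07 on the log2 scale (SE, adjusted p 3.79e-16 by edgeR). JUNB was 2.80-fold lower (2.44 to 3.22), FOS 2.57-fold (2.20 to 3.01), DUSP1 2.53-fold (2.19 to 2.93), JUN 2.52-fold (2.25 to 2.82) and IER3 2.45-fold (2.25 to 2.67). KLF4 was 2.26-fold lower (1.47 to 3.50), IER2 2.04-fold (1.86 to 2.25), FOSL1 1.77-fold (1.51 to 2.08) and KLF6 1.38-fold (1.25 to 1.51). The largest edgeR adjusted p among them was 0.00357, for KLF4.

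Of all tested genes 20.4% fell in this comparison and 20.4% rose, against 10 and 0 of the immediate early genes. A fall of at least 2-fold was found in 8 of the 10, all but FOSL1 and KLF6, where 6.62% of tested genes fell that far. The median log2 change was -1.31 for the 10 genes and close to 0 over all tested genes. EGR1 ranked at percentile 98.2 of the absolute changes, JUNB at 93.6 and KLF6, the least changed, at 66.4. The wLwKhShK libraries were the deepest. All 10 genes were called again after all libraries were thinned to the smallest total, a step added after seeing the data. Thinning leaves the expected CPM unchanged, so it bears only on the number of reads.

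The diast group against the solvent group is the same comparison for the control diastereomer. Of the 10 genes 7 fell: IER3 by 2.10-fold (95% interval 1.93 to 2.29), JUNB by 1.87-fold (1.64 to 2.15), FOSL1 by 1.84-fold (1.56 to 2.18), EGR1 by 1.77-fold (1.62 to 1.95), JUN by 1.67-fold (1.49 to 1.87), IER2 by 1.43-fold (1.30 to 1.57) and DUSP1 by 1.36-fold (1.18 to 1.56). The largest edgeR adjusted p of the 7 was 0.00267, for DUSP1, and the smallest was 1.37e-10, for IER3. FOS, KLF4 and KLF6 did not pass. Their log2 changes were -0.07 ± 0.10 for FOS (95% interval -0.29 to 0.14), 0.23 ± 0.28 for KLF4 (-0.36 to 0.82) and -0.16 ± 0.06 for KLF6 (-0.30 to -0.03).

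No immediate early gene rose in the diast group, where 10.4% of all tested genes rose and 10.7% fell. Only IER3 fell by at least 2-fold, and 1.44% of tested genes did so. The median log2 change of the 10 genes was -0.63, against 0.00 over all tested genes. KLF6 passed the threshold under 7 of the other settings, among them the fit of only these groups (adjusted p 0.0287). Without solvent replicate 1 or 2, or diast replicate 1 or 2, the number of all genes called was 1907, 1763, 1775 or 1772 in place of 3172, and the same 7 immediate early genes were called each time.

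The wLwKhShK and diast groups were also compared directly, since the peptides are diastereomers and both metabolite preparations were added at the same ratio. EGR1 was 3.51-fold lower in the wLwKhShK group than in the diast group (95% interval 3.18 to 3.87), a log2 difference of -1.81 ± 0.07 (SE, edgeR adjusted p 9.01e-13). KLF4 was 2.66-fold lower (1.73 to 4.09), FOS 2.44-fold (2.09 to 2.86) and DUSP1 1.86-fold (1.61 to 2.16). JUN was 1.51-fold lower (1.34 to 1.70), JUNB 1.495-fold (1.30 to 1.73) and IER2 1.43-fold (1.30 to 1.57). KLF6 was 1.23-fold lower (1.12 to 1.35) and IER3 1.17-fold lower (1.07 to 1.27). FOSL1 alone did not differ by the test, at a log2 difference of 0.06 ± 0.12 with a 95% interval of -0.18 to 0.31, which leaves room for a difference of up to 1.24-fold.

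Thus 9 of the 10 genes were lower in the wLwKhShK group and none was higher, where 9.19% of all tested genes were lower and 8.56% higher. The difference was at least 2-fold for 3 of them, EGR1, KLF4 and FOS, and 1.78% of tested genes were lower by that much. The median log2 difference was -0.59 for the 10 genes and -0.01 for all tested genes. The call for IER3, at a log2 difference of -0.22, was lost at -0.16 without wLwKhShK replicate 1 (adjusted p 0.217), -0.21 without diast replicate 1 (0.115), -0.20 without diast replicate 2 (0.138) and -0.19 with no filter on low counts (0.0727). That for KLF6, at -0.30, was lost at -0.23 without diast replicate 2 (0.0964). Without wLwKhShK replicate 1, diast replicate 1 or diast replicate 2 the number of all genes called dropped from 2666 to 1037, 1143 or 1304.

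**Figure D3:**
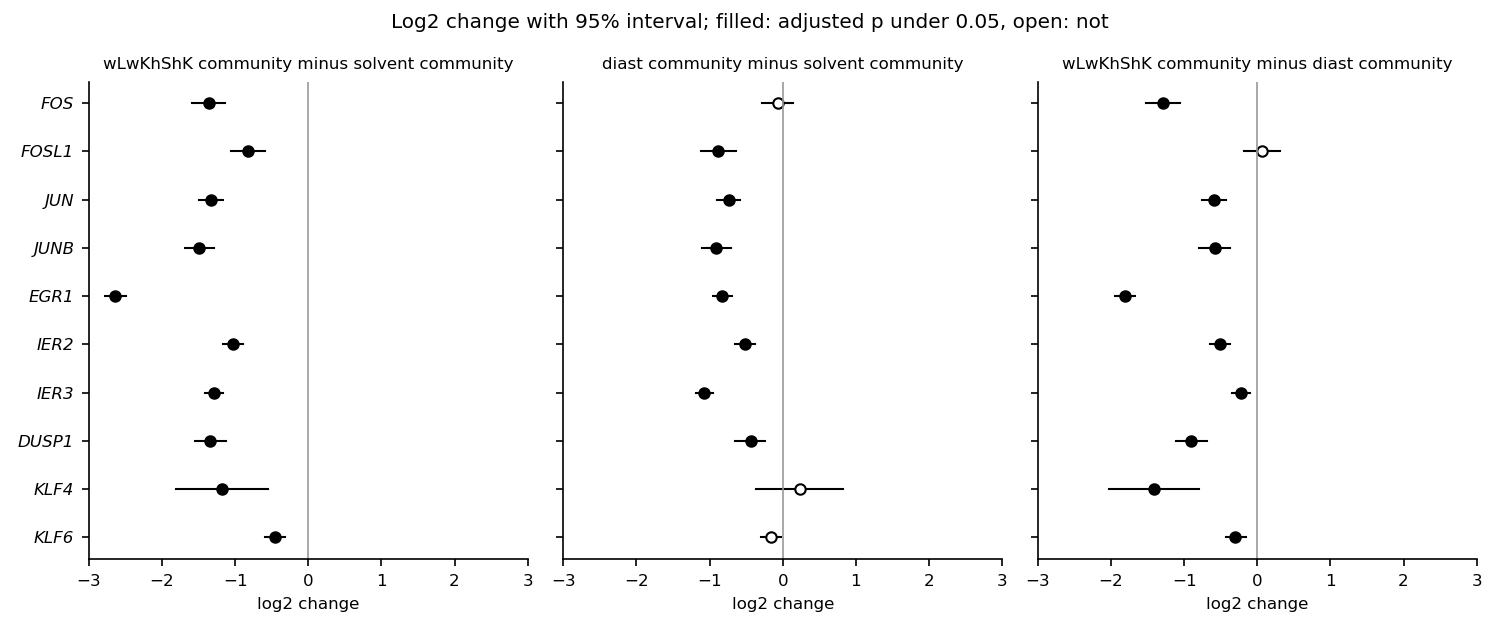
Log2 change of each gene with its 95% interval for wLwKhShK minus solvent, diast minus solvent and wLwKhShK minus diast, with filled points for an adjusted p under 0.05. All 10 points are filled and on the negative side of 0 in the first panel, 7 in the second and 9 in the third, with EGR1 farthest out in the first at -2.64 and FOSL1 open in the third at 0.06.

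With metabolites of either peptide-treated community, most of the genes lay below their level in medium. In the wLwKhShK group 8 genes were lower than in medium: EGR1 by 5.11-fold (95% interval 4.63 to 5.64), FOSL1 by 2.91-fold (2.49 to 3.40), JUN by 2.73-fold (2.44 to 3.06), JUNB by 2.46-fold (2.14 to 2.82), DUSP1 by 2.24-fold (1.94 to 2.60), IER2 by 1.98-fold (1.80 to 2.17), KLF6 by 1.67-fold (1.52 to 1.84) and IER3 by 1.46-fold (1.34 to 1.59). FOS was the exception, at 1.56-fold above medium (1.31 to 1.86, edgeR adjusted p 0.000142). KLF4 did not differ by the test, with a log2 change of 0.51 ± 0.33 and an interval of -0.18 to 1.21. Of all tested genes 24.5% were lower and 28.3% higher than in medium, and 4.59% were lower by at least 2-fold, as were 5 of the 10.

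In the diast group the same 8 genes were lower than in medium. FOSL1 was 3.04-fold lower (2.59 to 3.57) and JUN 1.81-fold (1.62 to 2.02), and JUNB was 1.64-fold, EGR1 1.46-fold, IER2 1.38-fold, KLF6 1.36-fold, IER3 1.255-fold and DUSP1 1.204-fold lower. FOS and KLF4 were higher than in medium, by 3.81-fold (3.22 to 4.51) and 3.795-fold (2.40 to 6.00), which sits beside their 4.01- and 3.23-fold rise in the solvent group. Of all tested genes 24.5% were lower and 28.2% higher, and 10.3% were at least 2-fold higher, as were 2 of the 10. DUSP1 had the weakest call, at a log2 change of -0.27 with an edgeR adjusted p of 0.026. The change was -0.17 without medium replicate 1 (adjusted p 0.229) and -0.43 without medium replicate 2 (0.00207). The call was also lost at -0.27 without diast replicate 2 (0.0832) and at -0.21 under upper-quartile scaling (0.0653). The comparisons with medium share their 2 medium libraries, as those with the solvent group share its libraries, so their agreement is not independent.

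**Figure D4:**
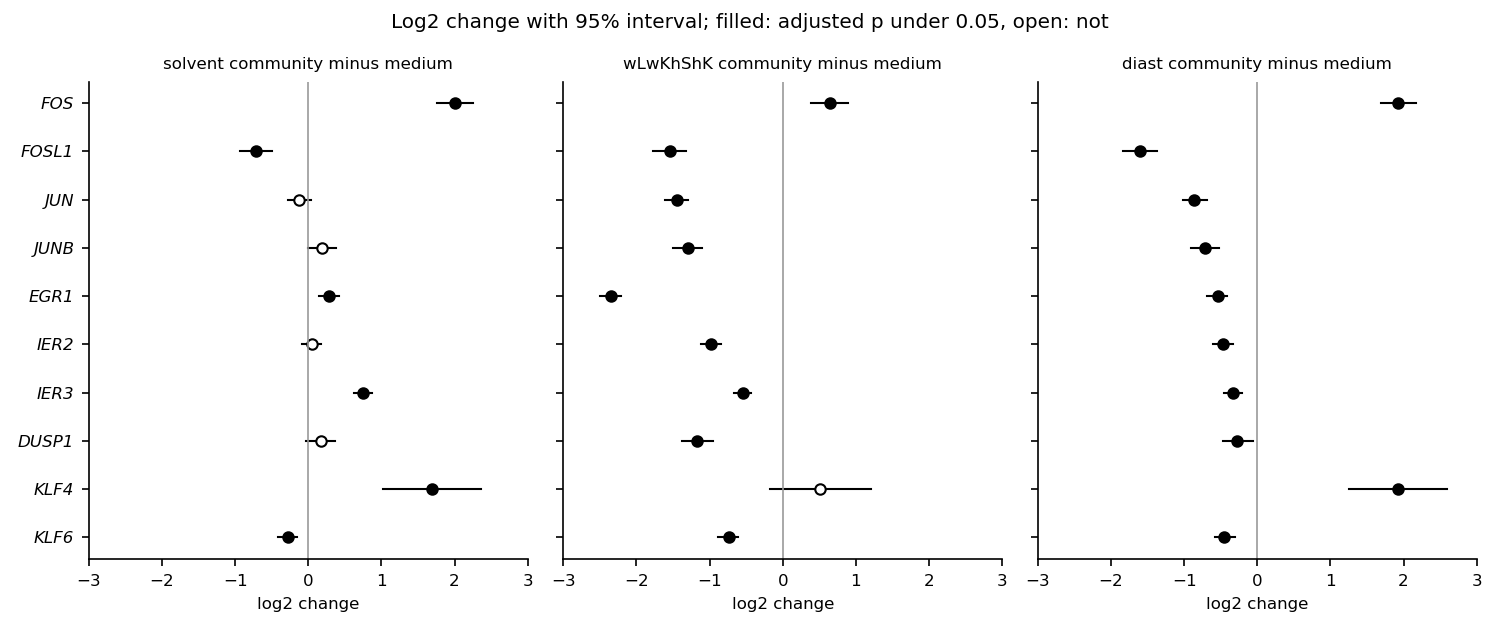
Log2 change of each gene against medium with its 95% interval for the solvent, wLwKhShK and diast groups, with filled points for an adjusted p under 0.05. FOS lies on the positive side of 0 in all 3 panels, at 2.00, 0.64 and 1.93, and FOSL1 on the negative side in all 3, at -0.72, -1.54 and -1.60.

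**Figure D5:**
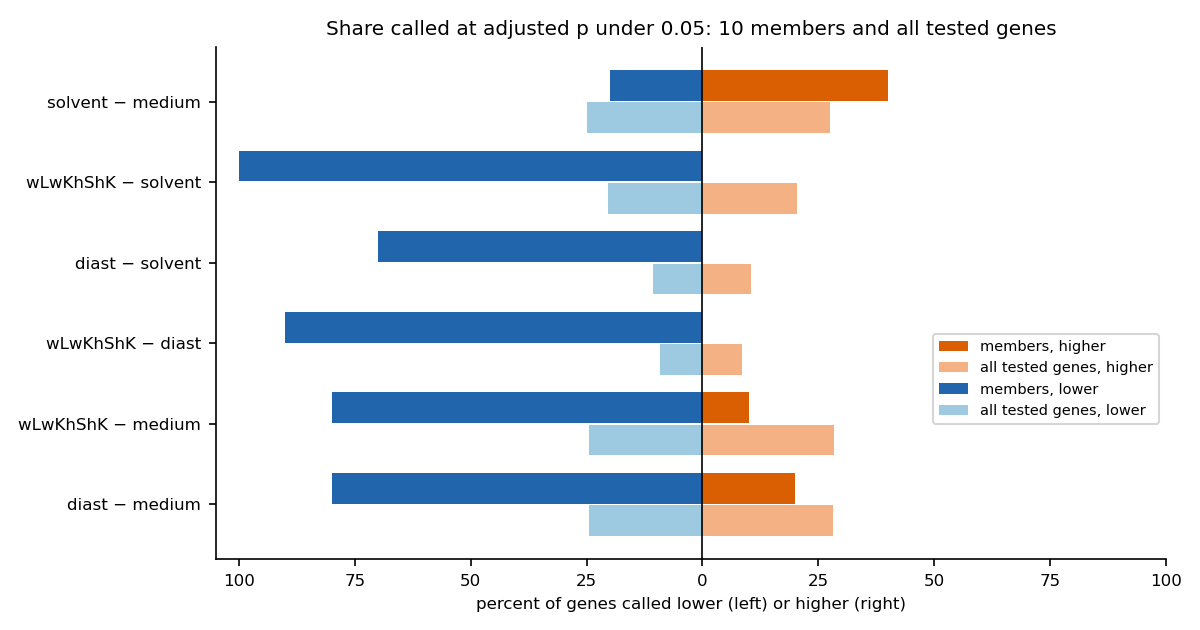
Percent of the 10 immediate early genes (dark bars) and of all 15023 tested genes (light bars) called lower (left) or higher (right) at an adjusted p under 0.05 in the 6 comparisons. The dark bar for wLwKhShK minus solvent reaches 10 of 10 genes lower, where 20.4% of all tested genes were.

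Correlations of log2 CPM across the 8 libraries are descriptions over points that form 4 pairs of replicates, so they follow the group means. JUN correlated with IER2 at r = 0.99, with JUNB at 0.98 and with EGR1 at 0.92, and DUSP1 with EGR1 at 0.98. FOSL1 correlated with JUN at 0.86, with EGR1 at 0.65 and with IER3 at 0.55. FOS correlated with KLF4 at 0.98, but with JUN at -0.02 and with FOSL1 at -0.49. Among the 4246 other tested genes whose group means span at least 1 log2 unit, ENSG00000163040.14 was most like FOS (r = 0.996). ENSG00000136603.13 and 1 other gene had the highest r with EGR1, 0.988 for both. No names were available for these IDs in the tables used. The 2 nearest genes of each of the 10 had an r of 0.979 to 0.997.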

How the data were processed

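The deposited RNA-seq values are expected counts per gene without normalization, for which the submitters' processing notes name RSEM 1.2.31, STAR 2.5.1b, fastp 0.24.0 and the build hg38. The annotation and the strand setting are not given in the sources used here. Of the values 8.06% were not whole, and they were rounded. Entries with numeric (649) and spike-in (97) IDs were left out. Together they held 0 to 8 counts in a library, too few to scale libraries by. The reporter tables were not used. Tests were run in edgeR 4.0.16 under R 4.3.3, with DESeq2 1.42.0 as an alternative. After filterByExpr and TMM scaling, 1 robust quasi-likelihood model was fitted to all 8 libraries and tested for 6 contrasts and for any difference, with adjustment over the 15023 genes. The SE is the absolute log2 change divided by the square root of F, and intervals use it. The script was tested on simulated data and judged from 5 CPM up, a mark set after first runs had missed low genes of known change, and KLF4 lies below it.

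The members, lists and tests were chosen with earlier results of these data known. All 10 members are named in every contrast. For genes of like pattern, the rule took the 2 highest Pearson r values (log2 CPM, prior count 2) for each member, of which 2 IDs are printed. Lists of other early genes, MAP kinase components, AP-1 targets and cell markers, and promoter motifs, were planned but not analysed here, because the reference tables used here are for mouse.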

Additional observations from a re-analysis of the deposited data

How the results depend on the processing

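The 60 log2 changes (10 genes in 6 contrasts) were recomputed under 17 other settings, which gave 1020 values. Of these, 999 kept direction and side of the threshold, and 53 of the 60 changes did so under every setting. The fall of all 10 genes from solvent to wLwKhShK was called under all 17, and all 10 differed among the groups under each setting run for that test, for which a fit of only 2 groups gives no value. Members called ranged from 6 to 8 for solvent against medium, 7 to 8 for diast against solvent, 7 to 9 for wLwKhShK against diast and 9 to 10 for diast against medium, and stayed at 9 for wLwKhShK against medium. The uncalled FOS difference between diast and solvent turned sign without diast replicate 1, with a range of -0.16 to 0.02 over single omitted libraries. Omitting 1 library gave 1763 to 3535 called genes for diast against solvent and 1037 to 3279 for wLwKhShK against diast. The cause of these changes was not tested. Thinning to the smallest library was added after seeing the data and changed no member's call. The labels do not say whether same-numbered libraries are paired. Deviations of same-numbered libraries correlated at -0.03 to 0.07 over all tested genes, which cannot settle it. A replicate block made KLF6 pass in diast against solvent (-0.16, edgeR adjusted p 0.0445) and changed no other member's call. It gave 3706 called genes there in place of 3172, and 3404 in place of 2666 for wLwKhShK against diast. Depth limits KLF4 most, at 21 to 90 reads a library.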
